A study of Mus musculus with 8 samples.

Results

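The collagen genes of the mouse median eminence (ME) were taken as every gene whose symbol in the single-cell gene table consists of Col, a number, the letter a and a number. This rule found 44 of the 27998 genes in that table, and all 44 were also among the 55450 genes of the bulk table. The ME is the floor of the third ventricle at the base of the hypothalamus, where tanycytes (glial cells that line the ventricle and send processes to the capillaries) lie next to pituitary stalk, leptomeninges and fenestrated vessels. One single-cell library pooled the ME of 10 wild-type C57BL/6 females aged 2 months, and 7 bulk libraries held 3 wild-type ME samples (control) and 4 from Rax::BrafV600E mutants, labelled with the same strain and age; per the study's methods the bulk tissue came from 3 control and 4 mutant mice. In the mutants an activated Braf allele is switched on by a tamoxifen-inducible Cre driven by Rax, so that Rax-expressing cells carry it while the rest of the tissue need not. No cells were sorted for the bulk libraries, and their sex is not labelled. The methods place collection 2 months after tamoxifen, so whether the labelled 2 months are the age at collection is unclear.

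Collagens are triple-helical proteins built from 3 alpha chains, each encoded by its own gene, and the chains that meet in 1 cell decide which collagen it can make. Fibrillar collagens (types I, II, III, V, XI, XXIV and XXVII) form the fibres of meninges and vessel walls, type IV makes the network of basement membranes, type VI forms beaded filaments, type VIII a short-chain lattice, and the FACIT collagens (such as IX, XII and XVI) coat fibres. Types XIII, XVII, XXIII and XXV are transmembrane proteins with a collagenous outer part that can be shed, and types XV and XVIII are basement membrane proteoglycans. In brain most fibrillar collagen is known from leptomeningeal and perivascular fibroblasts, type IV from endothelial and mural cells, and type XXV from neurons, where it was found in amyloid plaques.

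The single-cell library held 990 cells with 3284 to 57119 unique molecular identifiers (UMIs, 1 for each captured molecule) per cell. Cells were clustered without the collagen genes and named by markers that hold no collagen. The classes were tanycyte-like (181 cells), ependymal-like (44 cells, with 7 of 8 ependymal and also 6 of 10 tanycyte markers at 3 times the other cells), fibroblast-like (173), arachnoid-barrier-like (23), oligodendrocyte precursor-like (OPC-like, 60), oligodendrocyte-like (44), neuron-like (49), pars tuberalis-like (56), macrophage- or microglia-like (81), NK/T-like (31) and erythrocyte-like (241). Endothelial cells did not form a cluster: 7 cells of the fibroblast-like cluster held 30 to 98 UMIs of endothelial markers while no other cell held more than 7, and these 7 were set apart by a minimum of 10 marker UMIs chosen after the values were seen. The fibroblast-like cells held 6 of 8 fibroblast and also 6 of 10 mural markers at that level and were rich in Lum, Dcn and Mfap4, whereas the leptomeningeal transporters Slc22a6, Slc13a4 and Slc6a13 had 2, 2 and 16 UMIs in the whole library. No mural class was found (Myh11 1 UMI, Higd1b 2, Notch3 6), so collagens of pericytes and smooth muscle could not be told from those of the 7 endothelial-marker cells or of the fibroblast-like cells. The bulk libraries held 4928456 to 13816596 counts, but the number of genes detected ran from 17874 in control 3 and 21986 in control 2 to 34942 in control 1, and from 25910 to 40852 in the mutants. Rax, the gene that drives the Cre, had a log2 fold change of 0.23 between mutants and controls and Braf of 0.07 (edgeR quasi-likelihood, Benjamini-Hochberg adjusted p = 0.959 and 0.98). The counts do not separate the activated Braf allele from the wild-type one.

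A total of 7 stretches before transcription starts are shown because their genes stand for the cell groups described next (RefSeq promoter table, GRCm38.p6; 120 bases read 5′ to 3′ on the gene's strand, ending 1 base before the RefSeq start, and outside every collagen exon in GENCODE M21). Capitals mark the CCAAT box, the TATA box letters TATAAA and the GC box letters GGGCGG, on either strand; no 2 of these motifs overlap in the printed windows. The windows are Col25a1 at chr3:130180725-130180844 (plus strand, inside the longer GENCODE gene), Col23a1 at chr11:51289800-51289919 (plus), Col3a1 at chr1:45311418-45311537 (plus), Col13a1 at chr10:61979109-61979228 (minus), Col8a1 at chr16:57754738-57754857 (minus) and Col11a2 at chr17:34039018-34039137 (plus). The last is the whole interval of 71 bases between the starts of Col4a4 and Col4a3, chr1:82586850-82586920, on the strand of Col4a4.
Col25a1: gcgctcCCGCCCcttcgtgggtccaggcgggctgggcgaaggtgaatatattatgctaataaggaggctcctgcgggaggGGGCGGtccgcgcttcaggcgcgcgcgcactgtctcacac
Col23a1: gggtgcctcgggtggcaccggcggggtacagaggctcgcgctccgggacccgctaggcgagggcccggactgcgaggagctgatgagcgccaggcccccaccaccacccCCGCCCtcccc
Col3a1: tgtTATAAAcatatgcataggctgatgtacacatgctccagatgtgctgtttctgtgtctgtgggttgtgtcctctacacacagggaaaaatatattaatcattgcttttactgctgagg
Col13a1: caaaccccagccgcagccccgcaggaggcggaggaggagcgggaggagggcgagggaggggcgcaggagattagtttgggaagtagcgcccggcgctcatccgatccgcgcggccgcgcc
Col8a1: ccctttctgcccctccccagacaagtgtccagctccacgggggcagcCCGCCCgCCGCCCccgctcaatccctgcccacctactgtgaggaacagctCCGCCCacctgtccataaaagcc
Col11a2: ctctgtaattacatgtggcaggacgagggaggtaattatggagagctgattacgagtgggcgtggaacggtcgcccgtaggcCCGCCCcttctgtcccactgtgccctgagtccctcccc
Col4a4 and Col4a3: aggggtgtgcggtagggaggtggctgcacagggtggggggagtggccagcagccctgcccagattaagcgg
The tanycyte pair holds GGGCGG but no TATAAA in these windows, Col3a1 holds TATAAA but no GGGCGG, and the shared interval of the Col4a4 and Col4a3 pair holds none of the 3 motifs. Over the 38 windows of 300 bases that the table has for 35 of the 44 genes, GGGCGG was in 60.5% against 35.7% of the 32851 windows of all genes, CCAAT in 34.2% against 37.4% and TATAAA in 13.2% against 13.6%. These are matches of letters and not mapped sites. The 3 type IV pairs lie head to head: Col4a1 and Col4a2 on chromosome 8 (starts at 11312826 and 11312805, with 5′ ends that overlap by 22 bases), Col4a3 and Col4a4 on chromosome 1, and Col4a5 and Col4a6 on the X chromosome with 1308 bases between their starts (GENCODE M21, GRCm38).

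Of the 44 collagen genes, 38 had at least 1 UMI, and 32 had at least 20. The library held 15426 collagen UMIs among 9846289 in all. Fibroblast-like cells gave 50.6% of them, tanycyte-like cells 29.7%, arachnoid-barrier-like cells 5.80% and ependymal-like cells 3.88%. As a share of their own RNA, fibroblast-like cells held 6510 CPM of collagen (UMIs of the class scaled to a total of 1000000; exact 95% Poisson interval 6366 to 6656), arachnoid-barrier-like cells 3751 (3509 to 4006), tanycyte-like cells 2499 (2427 to 2573), endothelial-marker cells 2439 (1995 to 2953) and ependymal-like cells 1577 (1453 to 1708). OPC-like cells held 635, and no other class held more than 348 (pars tuberalis-like). Erythrocyte-like cells, taken here as the level of free RNA, held 77.7 (66.2 to 90.5). With 1 library there is no replicate check, and all single-cell intervals cover counting error only.

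A gene was placed in a class when it had at least 20 UMIs and the lower bound of its interval there lay above the upper bound in every other class. By this rule 12 genes were placed, 20 were shared between classes and 12 were too sparse. Col25a1 was placed in tanycyte-like cells, Col1a1, Col1a2 and Col3a1 in fibroblast-like cells, Col6a1, Col6a2, Col8a1, Col8a2 and Col12a1 in arachnoid-barrier-like cells, Col4a1 and Col4a2 in endothelial-marker cells and Col9a3 in OPC-like cells. The 7 endothelial-marker cells hold 43048 UMIs in all, so that their wide intervals kept many genes shared. When similar classes were pooled (tanycyte- with ependymal-like, fibroblast- with arachnoid-barrier-like, OPC- with oligodendrocyte-like, a choice made after the data were seen) and those 7 cells were left out, 27 genes were placed: 20 in leptomeningeal, 5 in tanycyte and ependymal and 2 in oligodendrocyte-lineage cells. Leptomeningeal is used here only as a name for the pooled fibroblast- and arachnoid-barrier-like cells, in which perivascular fibroblasts and mural cells were not separated. Col4a1 and Col4a2 were among the 20, but with the 7 cells kept they were placed in the endothelial group. With those cells kept 5 genes were placed in leptomeningeal, 2 in tanycyte and ependymal and 1 in oligodendrocyte-lineage cells, and 22 were shared. In bulk, Col4a1 and Col4a2 were counted as endothelial and the other genes by their placement without the 7 cells, which leaves 18 leptomeningeal genes.

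**Figure D1:**
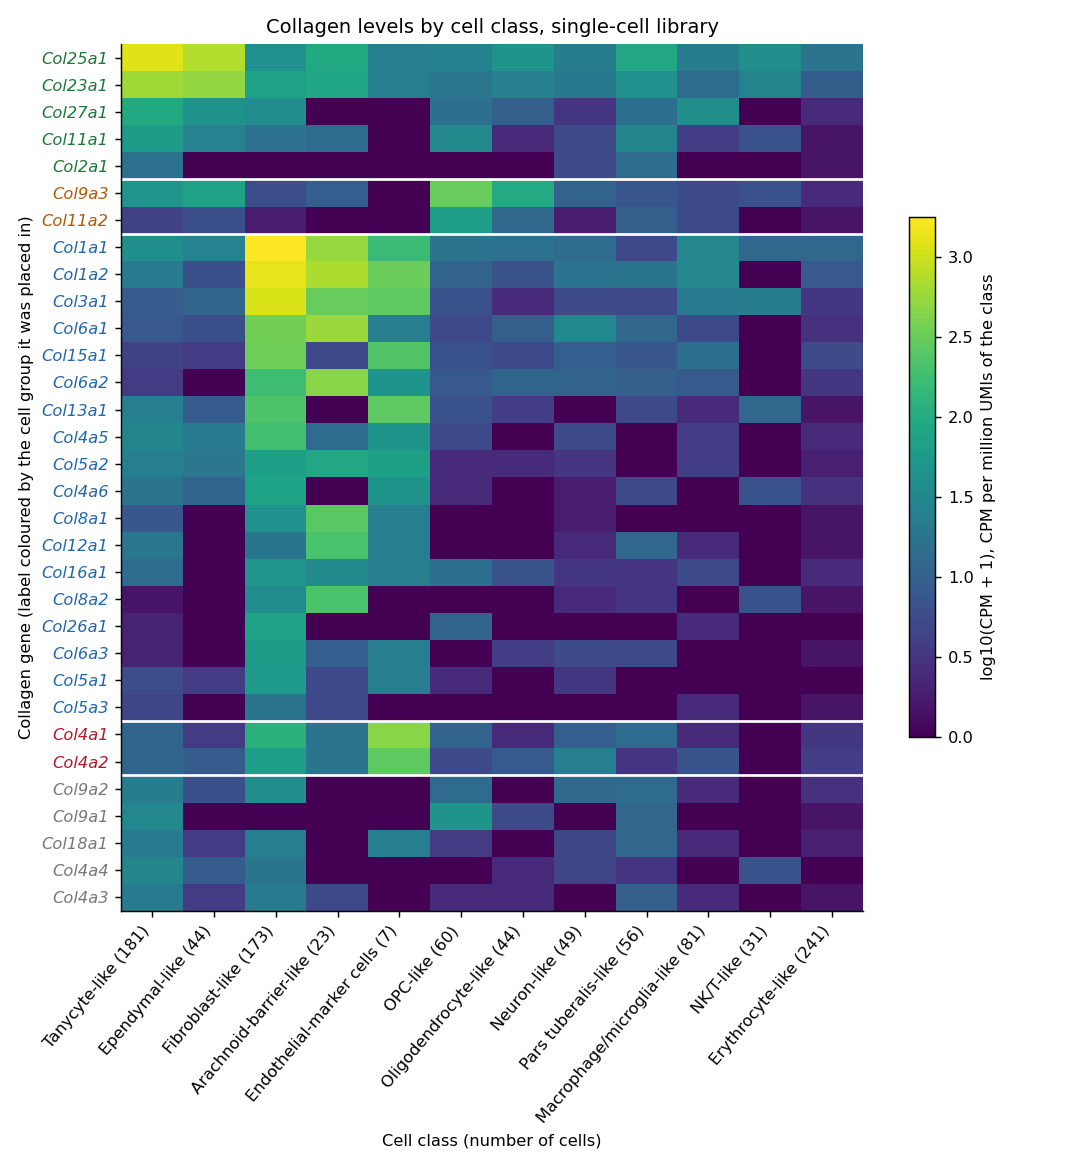
Level of the 32 collagen genes with at least 20 UMIs (rows, labels coloured by the cell group each was placed in) in the 12 cell classes of the single-cell library (columns, with cell numbers), as log10 of CPM + 1. Col25a1 and Col23a1 are brightest in tanycyte- and ependymal-like cells. Col1a1, Col1a2 and Col3a1 are brightest in fibroblast-like cells, and Col6a1, Col6a2, Col8a1 and Col8a2 in arachnoid-barrier-like cells. The type I, III and VI chains are bright in both fibroblast- and arachnoid-barrier-like cells.

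The 2 most abundant collagens of tanycyte-like cells were transmembrane ones. Col25a1 had 1289 CPM in tanycyte-like cells (1237 to 1342) and 751 in ependymal-like cells (667 to 844), against 42.6 in fibroblast-like cells and 16.7 in erythrocyte-like cells. Each of the 181 tanycyte-like cells held at least 1 Col25a1 UMI, with a median of 10 and a maximum of 109. That made 100% of these cells (exact binomial interval 98.0 to 100%), compared with 13.3% of erythrocyte-like cells, whose depth was close to theirs (medians of 7892 and 7747 UMIs). After each cell was thinned to 3000 UMIs these shares were 97.8% and 4.15%. Col25a1 was the only collagen placed in tanycyte-like cells by the rule. With 30 components, where 80 cells were tanycyte-like and 147 ependymal-like, it had 1227 and 1157 CPM and was shared.

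Col23a1, which encodes another transmembrane collagen, was high in the same cells. It had 614 CPM in tanycyte-like (579 to 651) and 535 in ependymal-like cells (464 to 614), which overlap, and 8.10 in erythrocyte-like cells. Of the 181 tanycyte-like cells 174 held UMIs of both genes. Col25a1 gave 67.7% of the UMIs of the pair in tanycyte-like cells (66.1 to 69.3%) and 67.3% in erythrocyte-like cells (52.9 to 79.7%). In fibroblast-like cells it gave 36.7% (28.7 to 45.3%), so the 73.4 CPM of Col23a1 there were not in the tanycyte ratio. Within the fibroblast-like class Col23a1 was at 92.6 CPM (72.7 to 116) in the larger of 2 subclusters and at 35.1 (19.2 to 58.8) in the other.

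The other 3 genes of the group were fibrillar and lower. Col27a1, a fibrillar collagen known from cartilage, had 92.1 CPM in tanycyte-like cells (78.8 to 107), followed by 44.8 in ependymal-like and 39.8 in macrophage- or microglia-like cells. Col11a1, the alpha 1 chain of type XI, had 61.0 (50.3 to 73.5) and was next highest in OPC-like cells at 32.6 (20.7 to 48.9). Col2a1, the cartilage type II chain, had only 42 UMIs, of which 29 were in tanycyte-like cells (15.8 CPM, 10.6 to 22.7) and 6 in pars tuberalis-like cells (12.8 CPM, 4.70 to 27.9). These 3 joined the pooled tanycyte and ependymal group only without the endothelial-marker cells. Pooling was not needed for Col11a1 or Col27a1. Both were among 3 genes placed in tanycyte-like cells when the endothelial-marker cells were left in their cluster. Col2a1 overlapped the pars tuberalis-like cells in every fit by class in which it had enough UMIs, and it joined only because pooling put those cells with other classes.

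Type I and type III chains marked the fibroblast-like cells. Col1a1 had 1780 CPM there (1705 to 1857) and 554 in arachnoid-barrier-like cells (463 to 657). Col1a2 had 1336 (1271 to 1403) and 705 (602 to 820), and Col3a1 had 1157 (1097 to 1219) and 315 (248 to 394). In tanycyte-like cells the 3 genes were at 40.9, 21.8 and 7.63 CPM. Col1a1 and Col1a2, which join into the type I heterotrimer, were both found in 172 of 173 fibroblast-like cells. Col1a1 gave 57.1% of the UMIs of this pair in fibroblast-like cells (55.5 to 58.7%) and 44.0% in arachnoid-barrier-like cells (38.3 to 49.8%), 2 intervals that do not overlap.

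Other genes were highest in the fibroblast-like cells among the large classes but overlapped the 7 endothelial-marker cells. Col15a1, a basement membrane proteoglycan, had 336 CPM (304 to 371) in fibroblast-like cells against 232 (111 to 427) in endothelial-marker cells and 4.20 in arachnoid-barrier-like cells. Col13a1, a transmembrane collagen of adhesion sites, had 224 (198 to 253) against 279 (144 to 487), with 0 UMIs in arachnoid-barrier-like cells, where a count of 0 allows up to 12.6 CPM. Both thus separated the fibroblast-like from the arachnoid-barrier-like cells. Col4a5 had 184 CPM (161 to 210) and its head-to-head neighbour Col4a6 76.8 (61.9 to 94.2) in fibroblast-like cells, against 29.98 and 16.9 in tanycyte-like cells. Col16a1, a FACIT chain, had 48.4 (36.8 to 62.6), and Col5a2, which is built into type I and type III fibres, had 67.6 in fibroblast-like and 88.1 (54.5 to 135) in arachnoid-barrier-like cells. The 4 chains with fewer than 100 UMIs that joined the leptomeningeal group when the 7 cells were left out were Col26a1 (89 of 99 UMIs in fibroblast-like cells), Col5a1 (65 of 81), Col6a3 (70 of 86) and Col5a3 (20 of 30).

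A second round of clustering, over the vascular and leptomeningeal cells, divided the fibroblast-like cells into 115 and 58 cells that differed in basement membrane collagens. The 115 cells led by Srpx2, Rab20 and Ptgs2 held 413 CPM of Col15a1 (370 to 460), and the 58 led by Sfrp4, Cav1 and Igfbp3 held 183 (143 to 230). Col4a1 was at 160 (134 to 190) in the first and 40.1 (22.9 to 65.1) in the second. Col1a1 was at 1833 (1741 to 1930) and 1673 (1549 to 1805), with overlapping intervals. Collagens were left out of this clustering too, and the comparison within 1 library is a description.

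The arachnoid-barrier-like cells, 23 cells with the barrier markers Slc47a1 and Cdh1, shared the type I and III chains (Col1a2 705 CPM, Col1a1 554 and Col3a1 315). They were the highest class for another set. Col6a1 had 583 CPM there (490 to 689) and 357 (324 to 393) in fibroblast-like cells, and Col6a2 had 470 (387 to 565) and 171 (148 to 196). Both genes encode type VI chains. Col6a1 gave 55.4% of the pair in arachnoid-barrier-like and 67.6% in fibroblast-like cells (49.0 to 61.6% and 63.8 to 71.2%). Another type VI chain, Col6a3, had 70 of its 86 UMIs in fibroblast-like cells and 72 in fibroblast- and arachnoid-barrier-like cells pooled. Col6a4, Col6a5 and Col6a6 had no UMI, so these levels do not show which class can make type VI. The type VIII chains, known from endothelial basement membranes and cornea, had 264 CPM (Col8a1, 203 to 338) and 214 (Col8a2, 159 to 281), against 42.6 and 37.6 in fibroblast-like cells. Col12a1, a FACIT chain that coats type I fibres, had 214 CPM (159 to 281) against 18 in tanycyte-like and 17.5 in fibroblast-like cells. Of the 23 cells 10 held both type VIII chains. With each cell thinned to 3000 UMIs, Col8a1, Col8a2 and Col12a1 lost their placement. Col8a1 then overlapped the endothelial-marker cells alone (275 CPM, 166 to 430, against an upper bound of 265), and Col8a2 and Col12a1, with 6 and 5 UMIs left, also overlapped the fibroblast-like cells. Col8a1 also became shared when the 2 endothelial-marker cells with fibroblast markers were left out, since the interval of the remaining 5 cells reached 225.5 CPM.

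**Figure D2:**
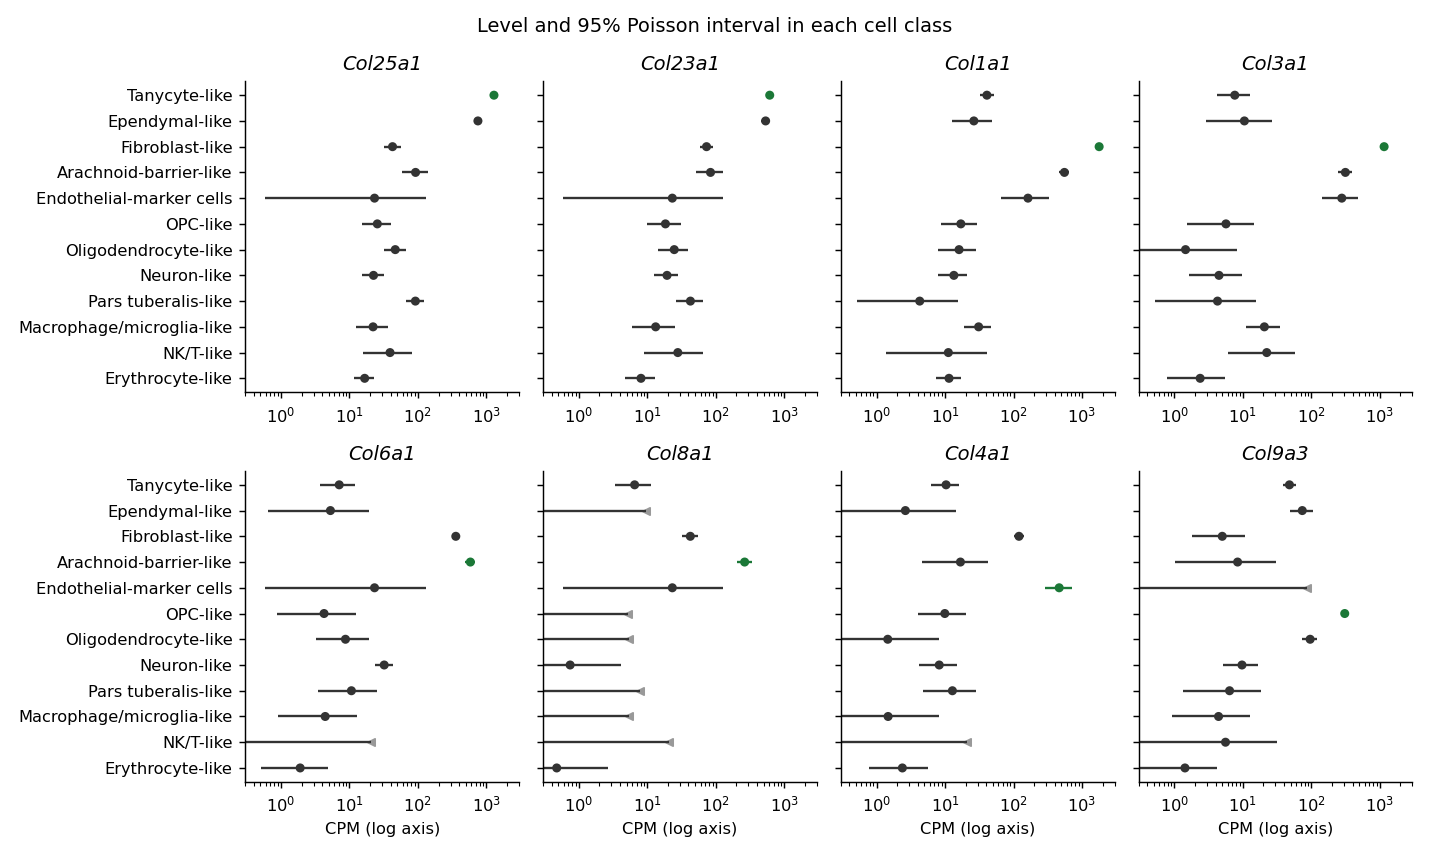
Level (point, CPM on a log axis) and exact 95% Poisson interval (line, cut at 0.3 CPM) of 8 collagen genes in the 12 cell classes, with the highest class in green and an arrowhead at the upper bound where no UMI was counted. Col4a1 is highest in the 7 endothelial-marker cells at 465 CPM, with an interval from 284 to 718 that stays above the 120 CPM of fibroblast-like cells.

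The vascular collagens rested on very few cells. Col4a1 had 20 UMIs in the 7 endothelial-marker cells, 1 to 7 in each, or 465 CPM (284 to 718), and Col4a2 had 12 UMIs, or 279 CPM (144 to 487). In fibroblast-like cells they were at 120 (101 to 141) and 65.1 (51.5 to 81.2). The 2 chains join in the common type IV heterotrimer, and Col4a1 gave 62.5% of the pair in endothelial-marker cells (43.7 to 78.9%) and 64.9% in fibroblast-like cells (58.2 to 71.1%). By number of UMIs, 144 of the 219 for Col4a1 lay in fibroblast-like cells. Among the 7 cells 2 held 42 and 36 UMIs of mural markers. Another 2 held 78 and 29 UMIs of fibroblast markers, and these carried all 7 Col1a1 UMIs and all 14 Col1a2 UMIs of the class. Without them Col4a1 was at 445 CPM (222 to 797) in 5 cells and kept its placement, while Col4a2 at 202 CPM (65.7 to 472) did not. In neuron-like cells, the deepest class with a median of 31422 UMIs, Col4a2 had 23.9 CPM (16.4 to 33.8) and gave the larger part of the pair, with Col4a1 at 25.6% (13.5 to 41.2%).

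Outside the tanycyte- and ependymal-like cells, the glial collagens placed were the type IX and XI chains Col9a3 and Col11a2, in the oligodendrocyte lineage. Col11a2 had 72 UMIs and was placed there only when the endothelial-marker cells were left out or left in their cluster. No astrocyte class was found, and the tanycyte-like cluster also held 3 of 8 astrocyte markers at 3 times the other cells. Collagens of astrocytes could therefore not be told apart. Col9a3 had 308 CPM in OPC-like cells (268 to 352), 96.2 in oligodendrocyte-like cells (74.4 to 122), 73.8 in ependymal-like and 48.0 in tanycyte-like cells. At least 1 UMI was found in 71.7% of OPC-like and 1.24% of erythrocyte-like cells (median depths of 10554.5 and 7747 UMIs). At a finer resolution the OPC-like cells fell into 38 cells led by cell cycle genes such as Top2a, with 145 CPM of Col9a3 (110 to 188), and 22 cells led by Enpp6, a gene of newly committed oligodendrocytes, with 513 (437 to 599). Col11a2 ran the same way, at 33.1 (17.6 to 56.5) and 106 (72.8 to 149), and Col11a1 the opposite way, at 53.4 (33.1 to 81.6) and 6.41 (0.777 to 23.2). Col9a1 had 46.8 CPM (32.2 to 65.7) in OPC-like and 32.2 (24.5 to 41.5) in tanycyte-like cells and was not detected in the 44 ependymal-like cells (0 UMIs, which allows up to 7.91 CPM). Type IX is a trimer of the chains of Col9a1, Col9a2 and Col9a3, but Col9a2 was highest in fibroblast-like cells at 39.2 (28.8 to 52.2) and had 12.8 CPM in OPC-like cells.

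There were 5 genes that remained shared without the endothelial-marker cells: Col9a1, Col9a2, Col18a1, Col4a3 and Col4a4. Col4a3 and Col4a4, the pair with the 71-base interval shown above, appeared in both tanycyte-like (20.2 and 29.4 CPM) and fibroblast-like cells (21.7 and 17.5), with overlapping intervals for each gene. Col18a1, whose product is cut to endostatin, was at 24.2 CPM in fibroblast-like, 23.2 in endothelial-marker and 21.8 in tanycyte-like cells. The 12 sparse genes were Col14a1 (17 UMIs), Col20a1 (11), Col19a1 (7), Col7a1 (3), Col22a1 (3) and Col24a1 (2), and 6 with no UMI (Col6a4, Col6a5, Col6a6, Col10a1, Col17a1 and Col28a1). Of the 17 Col14a1 UMIs 9 were in arachnoid-barrier-like cells. A count of 0 allows up to 3 UMIs in the library, so these 6 were not detectable at this depth.

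Of 62 genes that modify, export, cleave or bind collagen or build basement membranes, 11 were placed in a class, 37 were shared and 14 were too sparse. Serpinh1, the collagen chaperone HSP47, had 1638 CPM in fibroblast-like cells (1566 to 1712) and 1167 in arachnoid-barrier-like cells, and Pcolce, an enhancer of procollagen trimming, had 600 (557 to 646) and 315. Mmp2, a gelatinase, had 358 CPM in fibroblast-like cells (325 to 394), and Ctsk, a collagen-cleaving cathepsin, had 138 (117 to 160). Loxl1 was placed there too, at 152 CPM (131 to 176). Ppib was instead placed in OPC-like cells at 828 CPM (762 to 898), against 606 in fibroblast-like cells. Pcolce2 was placed in oligodendrocyte-like cells at 131 CPM (105 to 161). The collagen receptors were spread: Ddr1 was placed in oligodendrocyte-like cells at 294 CPM (255 to 338), Lair1, an inhibitory receptor of leukocytes, in macrophage- or microglia-like cells at 215 (182 to 253), and Mrc2, a receptor that takes up collagen, in arachnoid-barrier-like cells at 248 (188 to 319). Hspg2, the basement membrane proteoglycan perlecan, was placed in endothelial-marker cells at 395 CPM (230 to 632). These genes were chosen after their values were seen, from lists set by function.

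In bulk, 43 of the 44 collagen genes passed the filter on low counts, and Col10a1 (1 and 4 counts in mutants 2 and 3, 0 elsewhere) did not. No collagen passed an adjusted p of 0.05 in edgeR, and the lowest was 0.411. No gene of the 20466 tested passed either (0%). Before adjustment 7 collagens were higher in mutants at p below 0.05 (Col5a3, Col11a2, Col13a1, Col5a2, Col16a1, Col9a1 and Col9a3) and 2 were lower (Col1a1 and Col27a1), where over all genes 4.23% were higher and 3.89% lower. All 4 mutants lay above all 3 controls for 4 collagens (Col5a3, Col13a1, Col5a2 and Col9a1) and below them for 2 (Col1a1 and Col27a1), against 5.83% and 3.18% of all genes tested. The log2 fold change was above 0 for 31 of 43 collagens with a median of 0.34, and above 0 for 56.7% of all genes with a median of 0.13. DESeq2 called 1 collagen, Col5a3, at an adjusted p of 0.0156 (over all genes with an adjusted p, 1% were called higher and 0.435% lower).

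The median moved with 2 controls and with the number of genes detected. Without control 1 it was 1.51, with 15 collagens higher and 2 lower at an unadjusted p below 0.05, and in that fit 22.0% of all genes were higher at that p and their median was 0.43. Without control 3 it was 0.04, with 5 higher and 8 lower, and in that fit 4.91% of all genes were higher at that p and their median was 0.09. The share of all genes lower at that p was not computed for either of these fits, so the counts of lower collagens have no background beside them. With the number of genes detected as a covariate it was -0.08, against 0.01 over all genes, and with limma-voom it was 1.52, against 0.35. Collagens summed to 1091, 1094 and 708 CPM in controls 1 to 3 and to 1053, 988, 971 and 961 CPM in mutants 1 to 4, so the total overlapped. The libraries also differed in pituitary markers. Pars tuberalis markers summed to 4901, 1446 and 1387 CPM in controls 1 to 3 and to 304 to 1386 in mutants. Other pituitary markers summed to 706 to 15256 CPM in controls and 971 to 20161 in mutants. Their part in the collagen values was not tested.

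**Figure D3:**
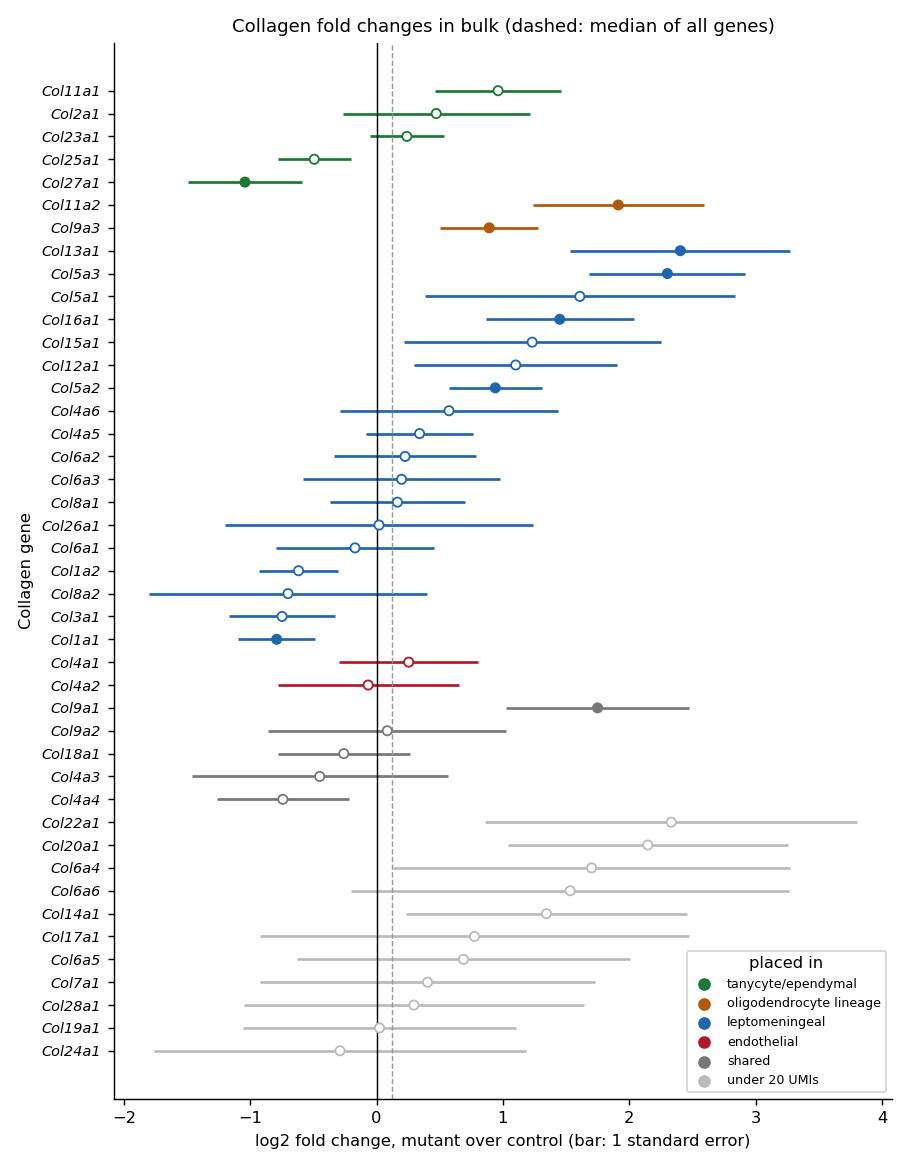
Log2 fold change of mutants over controls (point) with 1 standard error (bar) for the 43 collagen genes tested, coloured and ordered by the cell group they were placed in, filled where the unadjusted p is below 0.05. The dashed line is the median of all genes at 0.13. No gene passes the adjusted threshold, and the 18 genes of the group called leptomeningeal (pooled fibroblast- and arachnoid-barrier-like cells) run from -0.79 (Col1a1) to 2.40 (Col13a1). Col13a1 joins this group only with the endothelial-marker cells left out.

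The leptomeningeal collagens did not move together in bulk: of 18 genes, 13 were above 0 and 5 below, with a median log2 fold change of 0.28. Without control 3 the count was 9 and 9, with a median of -0.10. The 3 fibrillar genes of the fibroblast-like cells lay on the low side. Col1a1 had 89.8, 137 and 96.3 normalised CPM (TMM-scaled counts per 1000000) in controls 1 to 3 and 77.5, 70.9, 59.1 and 41.6 in mutants 1 to 4 (means 108 ± 25.7, SD, n = 3, and 62.3 ± 15.7, n = 4). Every mutant lay below every control, with a log2 fold change of -0.79 ± 0.31 (SE; edgeR, unadjusted p = 0.0264, adjusted p = 0.536). Col1a2 had 100, 93.4 and 58.9 CPM in controls and 52.4, 75.0, 45.3 and 46.5 in mutants, overlapping through mutant 2 (log2 fold change -0.62 ± 0.31, adjusted p = 0.653 in edgeR). Col3a1 had 66.7, 36.8 and 18.2 CPM in controls and 25, 28.3, 19.5 and 23.6 in mutants, with control 3 below all mutants (-0.75 ± 0.42, adjusted p = 0.696 in edgeR).

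Of the 8 fibroblast markers 7 were tested in the same libraries, of which 3 were above and 4 below 0. At an unadjusted p below 0.05 in edgeR 3 were lower (Lum, Dcn and Mfap4, the markers that the fibroblast-like cells held in quantity, with log2 fold changes of -2.06, -2.29 and -2.91), against 3.89% of all genes, and 0 markers passed after adjustment. Ogn had -0.51, and the transporters Slc22a6, Slc6a13 and Slc13a4 had 0.99, 0.59 and 0.19. The 8 markers summed to 1015 to 2877 CPM in controls and to 434 to 728 in mutants, without overlap, but Dcn gave most of this sum. Without Dcn the sums were 189 to 378 in controls and 81.0 to 245 in mutants, and overlapped. Igf2 was not tested, at 0 or below 1 CPM in every library. The 6 arachnoid barrier markers summed to 230 to 571 CPM in controls and 263 to 367 in mutants and overlapped. One of them, Cldn11, was also on the list of oligodendrocyte markers, whose sum was lower in all mutants. The barrier sum without Cldn11 was not computed, so it is not a level of barrier cells alone. In bulk, fewer cells of a type and less RNA per cell cannot be told apart, and the part of the fibroblast markers in the values of the type I and III genes was not tested.

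The other chains counted in the leptomeningeal group with the smallest p-values were higher in mutants. Col5a3, Col13a1 and Col5a2 joined that group only with the endothelial-marker cells left out. Col13a1 had its highest level in those cells (279 CPM from 12 UMIs), and Col5a3 rested on 30 UMIs in the single-cell library. Col5a3, a minor chain of type V, had 5.08, 1.24 and 2.31 CPM in controls and 9.79, 14.3, 15.0 and 17.7 in mutants. All mutants lay above all controls (means 2.88 ± 1.98, n = 3, and 14.2 ± 3.28, n = 4), a 4.93-fold difference with a log2 fold change of 2.30 ± 0.62 (SE; edgeR, unadjusted p = 0.00354, adjusted p = 0.411). Its level per kilobase of exon was 0.423 in controls and 2.09 in mutants. Col13a1 had 12.3, 7.02 and 0.257 CPM in controls and 49.3, 27.9, 41.8 and 18.8 in mutants, again without overlap (log2 fold change 2.40 ± 0.87, edgeR unadjusted p = 0.0192, adjusted p = 0.52). With no filter on low counts Col13a1 passed the adjusted threshold in edgeR at 0.00254, in a fit that called 240 of 47682 genes. Col5a2 had 14, 13.2 and 19.9 CPM in controls and 25.7, 36.9, 36.7 and 21.4 in mutants (0.94 ± 0.37, edgeR unadjusted p = 0.0269, adjusted p = 0.538). The partner of both type V chains, Col5a1, had 7.01, 0.266 and 0.0856 CPM in controls and 2.90 to 11.2 in mutants, and overlapped.

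**Figure D4:**
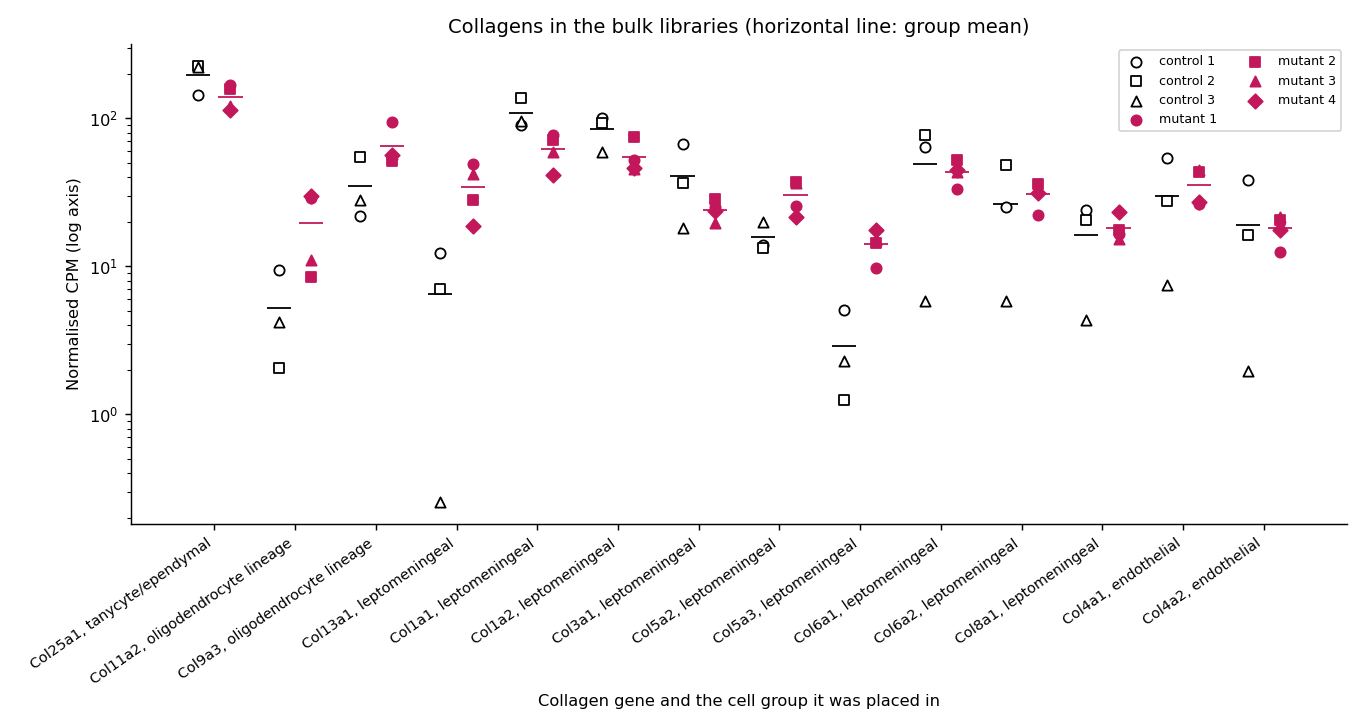
Normalised CPM on a log axis of 14 collagen genes in each bulk library (open black symbols, 3 controls; filled symbols, 4 mutants; horizontal lines, group means), ordered by the cell group they were placed in. The mutants lie above the controls for Col13a1, Col5a2 and Col5a3 and below them for Col1a1, and control 3 (triangle) lies far below the other libraries for the type IV, VI and VIII chains.

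None of the 5 genes placed in arachnoid-barrier-like cells passed the test, and the groups overlapped for each. Col6a1 had 63.8, 76.8 and 5.82 CPM in controls and 33.2, 52.2, 43.3 and 44.9 in mutants (log2 fold change -0.17 ± 0.63). Col6a2 had 25.1, 48.4 and 5.82 CPM in controls and 22.2, 35.8, 34.4 and 31.3 in mutants (0.23 ± 0.56). Col8a1 had 23.8, 20.4 and 4.36 CPM in controls and 16.6, 17.5, 15.4 and 23.2 in mutants (0.17 ± 0.54). In these 3, control 3 was the lowest library by far and the mutants lay between it and the other controls or among them. The adjusted p was 0.967, 0.952 and 0.962 in edgeR, and the sign turned for each of them when a control was left out. Col12a1 had 10.2, 9.15 and 0.513 CPM in controls and 8.09, 11.2, 17.4 and 20.2 in mutants (1.10 ± 0.80, adjusted p = 0.786 in edgeR). Col8a2 had 17.7, 28.6 and 0 CPM in controls and 11.7, 11.98, 6.35 and 7.86 in mutants (-0.70 ± 1.10, adjusted p = 0.913 in edgeR).

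Col4a1 and Col4a2, the basement membrane pair placed in endothelial-marker cells, passed no test either. Those cells held 20 of the 219 Col4a1 UMIs and 12 of the 167 Col4a2 UMIs of the single-cell library. Fibroblast-like cells held 144 and 78, so bulk values of the pair cannot be assigned to vessels alone. Col4a1 had 54.2, 27.7 and 7.44 CPM in controls and 26.4, 43.7, 44.8 and 27.2 in mutants (log2 fold change 0.25 ± 0.55), and Col4a2 had 38.4, 16.3 and 1.97 in controls and 12.5, 20.4, 21.5 and 17.7 in mutants (-0.07 ± 0.72; adjusted p in edgeR 0.943 and 0.987). Over the same libraries the 10 endothelial markers summed to 326 to 569 CPM in controls and 104 to 194 in mutants, without overlap. At an unadjusted p below 0.05 in edgeR 5 of 10 were lower, against 3.89% of all genes. Plvap, a protein of fenestrated endothelium, had a log2 fold change of -2.35. Mural markers summed to 115 to 253 and 133 to 270 CPM. The median log2 fold change of the endothelial list was -1.11. That of the pair was 0.09, and it was -0.68 with the number of genes detected as a covariate and -0.40 without control 3. The difference between the pair and the list was not tested. Of the 6 type IV genes 3 were above 0 and 3 below, none at an unadjusted p below 0.05.

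Among the tanycyte collagens Col25a1 and Col23a1 overlapped between the groups in bulk. Col25a1 had 144, 226 and 223 CPM in controls and 169, 158, 121 and 114 in mutants, or 198 ± 46.8 (n = 3) and 140 ± 27.1 (n = 4). Control 1 lay among the mutants while the other two lay above all of them (log2 fold change -0.49 ± 0.29, edgeR unadjusted p = 0.115, adjusted p = 0.712). Without control 1 its unadjusted p was 0.0405 in edgeR. That fit leaves out the control that lay among the mutants, and in it all mutants lay below all controls for 10.6% of all genes. Col23a1, named after its single-cell level was seen, had 97.4, 132 and 168 CPM in controls and 186, 131, 130 and 179 in mutants (0.24 ± 0.29, adjusted p = 0.885 in edgeR). Per kilobase of exon Col23a1 stood at 23.1 and 27.3 CPM in controls and mutants, Col1a1 at 16.4 and 9.49, and Col25a1 at 15.3 and 10.8, the 3 highest collagens in controls. Col27a1, added after its values were seen, was the gene of the group without overlap, with 22.4, 22.8 and 20.8 CPM in controls and 6.00, 11.5, 7.68 and 17.7 in mutants (-1.04 ± 0.45, unadjusted p = 0.0416, adjusted p = 0.59 in edgeR). Tanycyte markers summed to 1153 to 1390 CPM in controls and 886 to 1486 in mutants and overlapped. Of the 9 tested, 5 were above and 4 below 0, and at an unadjusted p below 0.05 in edgeR 3 were higher (Crym 1.88, Lhx2 1.08 and Dio2 0.87) and 1 lower (Scn7a -0.87), with 0 after adjustment. Among all genes 4.23% were higher and 3.89% lower at that p. The part of these markers in the values of the tanycyte collagens was not tested.

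Both oligodendrocyte-lineage collagens were higher in mutants before adjustment, in groups that overlapped. Col11a2 was counted in that lineage by its placement without the endothelial-marker cells. Col9a3 had 22.0, 55.0 and 28.0 CPM in controls and 94.6, 51.3, 57.3 and 56.7 in mutants, overlapping because control 2 lay above mutant 2 (log2 fold change 0.89 ± 0.39, edgeR unadjusted p = 0.0439, adjusted p = 0.599). Col11a2 had 9.38, 2.04 and 4.19 CPM in controls and 29.0, 8.44, 11 and 29.8 in mutants (1.91 ± 0.68, edgeR unadjusted p = 0.0173, adjusted p = 0.514), overlapping through control 1 and mutant 2. The 8 OPC markers summed to 247, 563 and 262 CPM in controls and to 1744, 844, 807 and 2113 in mutants, without overlap. At an unadjusted p below 0.05 in edgeR 7 of the 8 were higher, against 4.23% of all genes. Oligodendrocyte markers moved the other way, with 1335 to 3014 CPM in controls and 600 to 1278 in mutants. Mutants 1 and 4, with the most OPC marker counts, were also the highest for Col11a2, while for Col9a3 mutant 1 alone stood out. The part of the OPC markers in the values of these 2 genes was not tested.

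**Figure D5:**
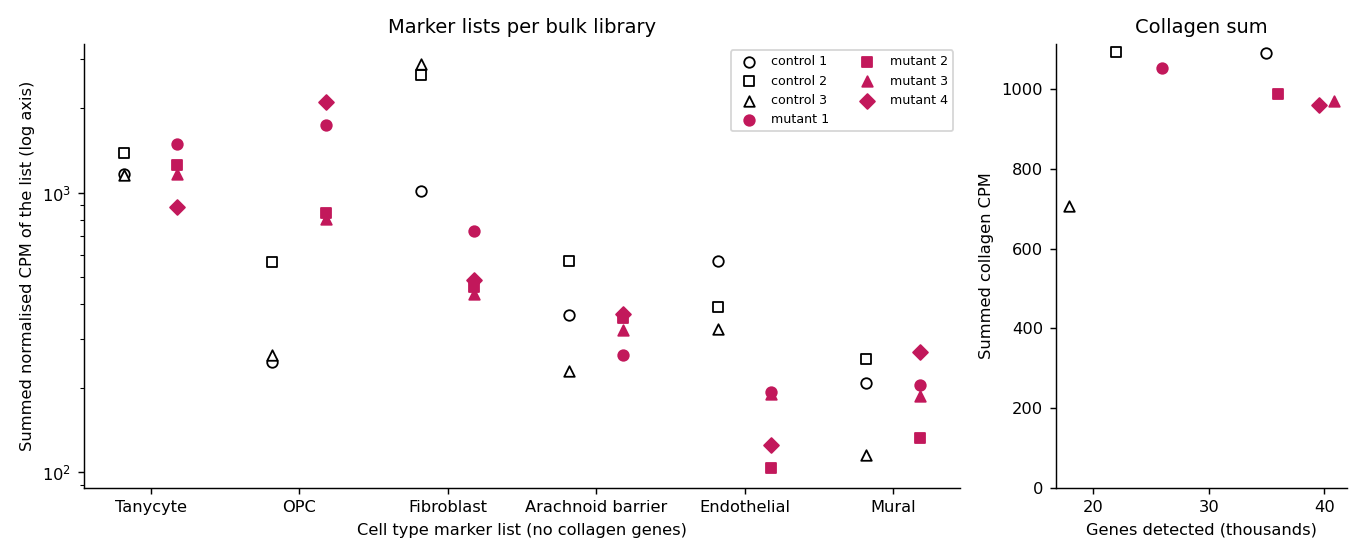
Left, summed normalised CPM (log axis) of 6 marker lists that hold no collagen in each bulk library (open symbols, 3 controls; filled symbols, 4 mutants). The sum of OPC markers is higher and the sums of fibroblast markers (mostly Dcn) and endothelial markers lower in all mutants, while those of tanycyte, arachnoid barrier and mural markers overlap. The arachnoid barrier list includes Cldn11, which is also an oligodendrocyte marker. Right, summed collagen CPM against the number of genes detected, where control 3 has the lowest value of both (708 CPM and 17874 genes).

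By family, the log2 fold change of the 9 FACIT collagens tested was above 0 for each, with a median of 1.34, where 56.7% of all genes were above 0. In edgeR 3 had an unadjusted p below 0.05 (Col9a1, Col9a3 and Col16a1), where 4.23% of all genes were higher at that p. After adjustment 0 passed, and Col19a1 (0.02 ± 1.08) and Col9a2 (0.09 ± 0.94) were near 0. The number above 0 was 8 without control 2 and 7 with the number of genes detected as a covariate or without control 3, mutant 3 or mutant 4. The median was 1.05 with that covariate and 0.78 without control 3, and 4 of the 9 were too sparse in the single-cell library. Summed, they had 93.3, 88.6 and 34.6 CPM in controls and 182, 113, 153 and 155 in mutants, without overlap. Col9a1, added after its values were seen, had 8.70, 8.26 and 0.685 CPM in controls and 25.8, 13.5, 22.4 and 17.3 in mutants (1.75 ± 0.72, adjusted p = 0.575 in edgeR), and Col16a1 had 17.6, 3.73 and 4.36 and 30.3, 25, 20.5 and 17.5 (1.45 ± 0.59, adjusted p = 0.556 in edgeR). The 11 fibrillar genes divided into 6 above and 5 below 0, and the 4 transmembrane ones into 3 above and 1 below. Of the 6 type VI genes 5 were above 0, though Col6a4, Col6a5 and Col6a6 had at most 8.76 CPM in any library. The 12 genes too sparse in the single-cell library were also low here, and 10 of their 11 tested members were above 0. Their sums were 56.3, 6.66 and 2.91 CPM in controls 1 to 3 and 22.3 to 61.7 in mutants, and overlapped. The number above 0 was 6 of 11 with the number of genes detected as a covariate, where 50.9% of all genes were. Without control 3 it was 7, where 56.4% of all genes were.

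The processing genes of collagen showed few differences. Among all genes tested 56.7% were above 0, and at an unadjusted p below 0.05 in edgeR 4.23% were higher and 3.89% lower. All mutants lay above all controls for 5.83% of all genes and below them for 3.18%. Of the 18 genes for chain modification and folding 6 were above and 12 below 0, and none had an unadjusted p below 0.05. The smallest were those of Serpinh1 (0.69 ± 0.40, edgeR adjusted p = 0.71) and P3h3, a prolyl hydroxylase family member (-0.80 ± 0.47, edgeR adjusted p = 0.714). Of 16 tested genes for export, trimming and crosslinking Pcolce was lower, with 86.2, 180 and 141 CPM in controls and 51.2, 32.6, 32.4 and 61.8 in mutants (-1.61 ± 0.35, edgeR unadjusted p = 0.000927, adjusted p = 0.31). Sparc, which binds collagen outside the cell, was higher, with 676 to 866 CPM in controls and 1082 to 1268 in mutants (0.59 ± 0.26, edgeR unadjusted p = 0.0478, adjusted p = 0.609). Pcolce was placed in fibroblast-like cells, like Col1a1, and Sparc was shared. All 4 tested collagenases and gelatinases were below 0, led by Ctsk (-1.70 ± 0.57, edgeR unadjusted p = 0.0127, adjusted p = 0.491) and Mmp9 (-1.48 ± 0.79, adjusted p = 0.675 in edgeR). Among 10 receptors Lair1 was lower, with 29.2, 75.1 and 47.9 CPM in controls and 17.7, 11.8, 9.19 and 16.3 in mutants (-1.88 ± 0.40, edgeR unadjusted p = 0.000736, adjusted p = 0.267), while Ddr2 had an adjusted p of 0.859 in edgeR. Macrophage and microglia markers, the class in which Lair1 was placed, summed to 979 to 2881 CPM in controls and 574 to 1390 in mutants. Of 11 basement membrane partners Lamb2, the laminin beta 2 chain, was higher in every mutant, with 44.8 to 85.9 and 89.9 to 134 CPM (0.81 ± 0.31, edgeR unadjusted p = 0.026, adjusted p = 0.533), and Lama4 had -0.90 ± 0.52 (adjusted p = 0.712 in edgeR).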

How the data were processed

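The single-cell library was made with the 10x 3′ v2 kit, and the deposited values are UMI counts per gene and cell (Cell Ranger 2.0.1, mm10, per the submitters' notes). Bulk libraries were made by Smart-seq2 from Trizol RNA, and the authors deposited raw read counts per Ensembl gene, for which aligner and counter are not given in the sources used here. Strand use in counting is not stated, so overlapping genes cannot be told apart: 28 of the 44 collagen genes overlap an annotated gene. Smart-seq2 covers whole transcripts, so the ranking of collagens by bulk level is given per kilobase. Sums over genes, and the choice of the most abundant genes of each class, used CPM that were not scaled by length.

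Identifiers matched GENCODE M21 for all 55450 bulk genes. Counts were fitted with edgeR 4.0.16 (TMM, filterByExpr, quasi-likelihood F-test) on all genes, mutant against control, with Benjamini-Hochberg adjustment over 20466 genes, a threshold of 0.05 and two-sided p-values. The study's methods give 3 control and 4 mutant mice for the 3 and 4 libraries, while the labels name no animals. DESeq2 1.42.0 and limma 3.58.1 were alternatives. Cells were clustered with Seurat 5.3.0 (4844 variable genes, of which the 4812 that are not collagens were used, 20 components, resolution 0.8), and Scrublet in scanpy 1.11.5 called 6 of 990 cells doublets (0.606%), which were kept. A cluster took the class with the largest share of markers at 3 times the other cells, with at least 3 markers. Scripts were tested on simulated data. Named in bulk with every library were the 3 most abundant genes placed in each class, the 5 with the smallest p and Col25a1, in single cells those with at least 100 UMIs, and the 2 smallest p-values of each pathway list. Other genes named were outside these rules and were added with their values known, among them Col5a1, Col8a2, Col9a1, Col12a1, Col16a1, Col23a1 and Col27a1 in bulk. The collagen genes, marker lists and tests were chosen with earlier results of these data known.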

Additional observations from a re-analysis of the deposited data

Results flagged for a closer look

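Among 14 described collagen genes and the collagen sum, checked in the 4 mutant libraries for a library far from the rest (groups of 3 are not checked, and chance gives about 1 in 20), 1 stood out. For Col9a3 the gap between mutant 1 (94.6 CPM) and the next mutant (57.3 CPM) was 0.861 of the range, above Dixon's 95% critical value for 4 samples. Without mutant 1 the unadjusted p of Col9a3 was 0.111 in edgeR.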

How the results depend on the processing

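In bulk, 14 described genes were refitted under 15 other settings, and of these 210 fits 194 kept direction and side of the threshold, 2 passed it and 14 turned. No collagen passed in the main fit, and no other setting called more than 363 genes in all. Keeping the side of the threshold was therefore likely beforehand, and these counts take no account of the size of a change. With no filter on low counts edgeR called 1 collagen (Col13a1, 2.42; 240 of 47682 genes in that fit) and DESeq2 called 1 (Col5a3, 2.30). Collagens lower at an unadjusted p below 0.05 numbered 1 with upper-quartile scaling, 1 with the replicate number as a block and 0 to 8 with 1 library left out (8 without control 3). The share of all genes lower at that p was not computed for these fits. Collagens higher at that p numbered 2 (without mutant 1, where 4.11% of all genes were) to 15 (without control 1, where 22.0% of all genes were). With 1 library left out, those with all mutants above all controls numbered 4 (without control 3, where 8.97% of all genes were) to 18 (without control 1, where 21.9% of all genes were). With no filter on low counts they numbered 3, where 4.74% of all genes were. Collagens with all mutants below numbered 2 to 8 with 1 library left out. There were 8 without control 3, where 6.25% of all genes were. There were 2 without control 2, mutant 1, mutant 3 or mutant 4, where 4.27% to 7.45% of all genes were. The median log2 fold change was 1.52 with limma-voom, -0.078 with the number of genes detected as a covariate, 1.08 with the block and 0.036 (without control 3) to 1.51 (without control 1) with 1 library left out. With the covariate Col4a1 was at -0.46, Col6a2 at -0.27 and Col8a1 at -0.34. With limma-voom Col4a2 was at 0.82 and Col6a1 at 0.52, and with the block at 0.59 and 0.31. With 1 library left out the ranges were -0.20 to 0.99 for Col4a1, -0.60 to 0.95 for Col4a2, -0.68 to 0.32 for Col6a1, -0.23 to 1.01 for Col6a2 and -0.28 to 0.52 for Col8a1. The cause was not tested. Same-numbered samples did not deviate together (r of -0.45, -0.01 and -0.23), so the numbers were not taken as pairs.

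In single cells Col25a1 in tanycyte-like cells was at 1192 CPM with resolution 0.4, 1210 with 10 components, 1227 with 30, 1194 with collagens kept among the variable genes and 1379 after thinning. Of the alternatives chosen after seeing the data, 22 genes were placed with the endothelial-marker cells left in their cluster and 27 with classes pooled without them. Bulk values with few counts, and classes of 7 and 23 cells, limit what depth can show.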

Other observations

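Neuron-like cells held collagen values outside the groups described. Col6a1 was at 32.2 CPM (23.3 to 43.3) in the 49 neuron-like cells, with a UMI in 25 of them at a median depth of 31422 UMIs, against 7.09 CPM in tanycyte-like cells and 1.91 in erythrocyte-like cells. Col19a1 had 7 UMIs in the library, of which 6 were in neuron-like cells. Pars tuberalis-like cells held 29.9 CPM of Col11a1 (16.3 to 50.2), with a UMI in 12 of 56 cells, and erythrocyte-like cells had one in 0.415% of cells at a greater depth (medians of 5330 and 7747 UMIs).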
